A study of Homo sapiens with 8 samples.

Results

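The tRNA that reads the aspartate codons through the anticodon GTC was followed through 10 of the 2962 small RNA features of the series. These were the 3 mature isodecoders tRNA-Asp-GTC-1, -2 and -3 and 7 loci of tRNA-Asp-GTC-2, chosen by name from the count table, where a second trailing number marks a single gene copy. Those rows were read as precursor transcripts from their naming alone, as the assignment of reads to them is not stated. All cells were HEK293, a line derived from human embryonic kidney. Of 8 libraries, 4 came from cells given a scramble control mimic and 4 from cells given a mimic of the 3′ fragment (tDR, tRNA-derived RNA) of tRNA-Asp-GTC, each at 50 nM with a lipid reagent and harvested 48 h later. The study's title concerns a hypoxia-responsive tRNA fragment, and the comparison here asks whether its parent tRNA differed once the fragment was supplied. The table has no separate row for fragments, so reads of the mimic and of the cell's own tRNA cannot be told apart in a mature row.

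Isodecoders are tRNAs with the same anticodon and differences elsewhere in the body. Each is made by RNA polymerase III as a precursor with a leader and a trailer. RNase P removes the leader, RNase Z the trailer, and CCA is then added to the 3′ end. In mammals tRNA-Asp-GTC carries a form of queuosine, a modified guanosine, at the first anticodon position, as do tRNA-Asn, tRNA-His and tRNA-Tyr. The enzyme TRDMT1, also called DNMT2, methylates a cytosine in its anticodon loop. Fragments of the mature tRNA arise when nucleases cut it, often in the anticodon loop under stress.

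All 7 loci were matched by name to RefSeq genes (GRCh38), each 72 bases long. The copies 2-1 to 2-5 of tRNA-Asp-GTC-2 lay in a row on chromosome 1, at 161440825 to 161440896, 161448243 to 161448314, 161455624 to 161455695, 161463034 to 161463105 and 161470415 to 161470486. Their starts were spaced by 7418, 7381, 7410 and 7381 bases, so that the array spanned 29662 bases. In GENCODE release 29 all copies of the array overlapped the long noncoding RNA gene AL592295.3. The copies 2-2, 2-3 and 2-4 were intronic, 17 bases of 2-5 overlapped an exon of that gene, and 17 bases of 2-1 overlapped an exon of the noncoding gene AL831711.1. The other 2 loci were on chromosome 12. tRNA-Asp-GTC-2-8 (96036021 to 96036092) sat in an intron of LTA4H, the gene of leukotriene A4 hydrolase, and tRNA-Asp-GTC-2-9 (124927345 to 124927416) overlapped no annotated gene. The sole RefSeq gene of tRNA-Asp-GTC-1 (chromosome 12, 98503503 to 98503574) lay in an intron of LINC02453, and that of tRNA-Asp-GTC-3 (chromosome 6, 27583457 to 27583528) overlapped no annotated gene.

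Library totals ran from 4016295 to 10246336 counts, of which mature tRNA rows held 11.4 to 19.3% and precursor rows 2240 to 5648 counts. These sums take in every row, also rows with identical counts. The unexplained row scr2 separated the groups as labelled, at 3522 to 5647 CPM (counts scaled to library size) with the scramble mimic and 7.37 to 34.7 CPM with the tDR mimic. Nothing in the labels ties a replicate to its own culture, so the p-values measure a spread that may be technical only.

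The level read in the main mature row differed between the groups by less than the spread between libraries. Any reads of the mimic would be part of it. tRNA-Asp-GTC-2, the main isodecoder, gave 22355, 31702, 24630.4 and 27914 CPM (scaled by TMM, a trimmed mean of feature ratios) across scramble 1 to 4. Across tDR 1 to 4 it gave 28563, 24189, 34630.1 and 27304 CPM. The groups overlapped over most of their range, and the lowest value was that of scramble library 1. The log2 fold change, tDR over scramble, was 0.11 (SE 0.14, adjusted p = 0.757 by the edgeR quasi-likelihood test, Benjamini-Hochberg over 1761 features). Its sign turned under total-count scaling (-0.044), as is set out with the other alternatives at the end.

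tRNA-Asp-GTC-1, encoded by a single gene in RefSeq, was the second isodecoder. Its values were 1146, 2045, 1526 and 1693 CPM across scramble 1 to 4. They were 1988, 1601, 2264 and 1874 CPM across tDR 1 to 4. The highest single value belonged to tDR library 3 and the lowest to scramble library 1, with overlap between them. The log2 fold change was 0.27 (SE 0.17, edgeR adjusted p = 0.372), and it was 0.14 without scramble library 1. tRNA-Asp-GTC-3, also a single-gene isodecoder, was far below both. It gave 40.1, 59.5, 85.3 and 50.1 CPM across scramble 1 to 4 and 43.3, 38.8, 47.0 and 54.6 CPM across tDR 1 to 4. Scramble library 3, the one with the fewest counts, was high and the other scramble libraries lay among or near the tDR values. The log2 fold change was -0.35 (SE 0.19, edgeR adjusted p = 0.318), and without scramble library 3 it was -0.14. Scaled on microRNAs alone it turned to 0.065. The genes are of equal length, so the order of the mature levels, 2 above 1 above 3, is an order per length as well, and in no library did these 3 rows change places.

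**Figure D1:**
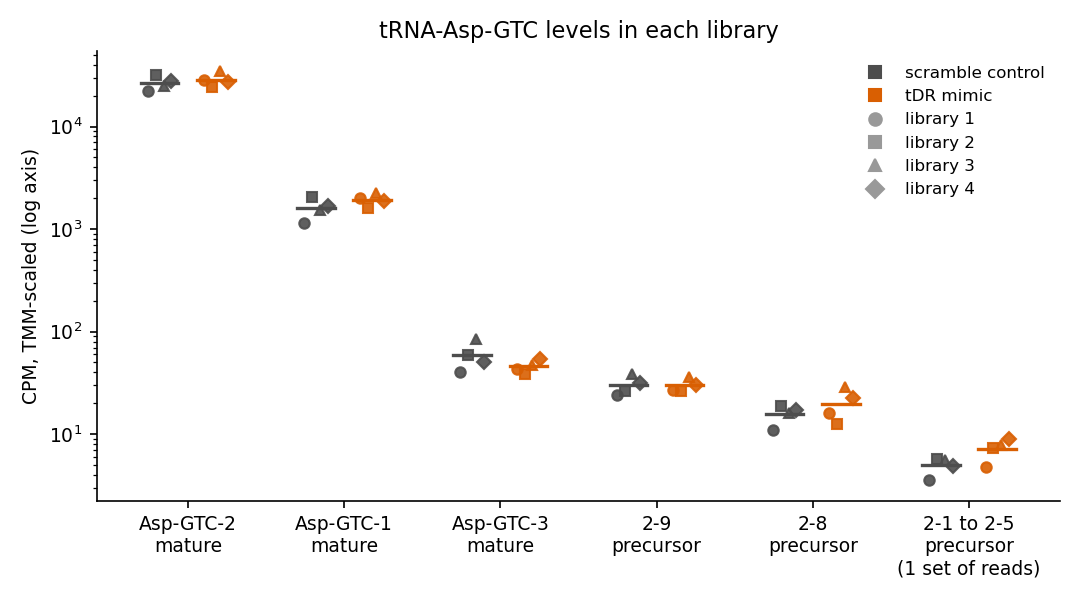
Level of each tRNA-Asp-GTC isodecoder and precursor read set in CPM (TMM-scaled, log axis), with 1 point per library and a bar at the mean of 4 libraries. The mature isodecoders span from about 26650.5 CPM (tRNA-Asp-GTC-2, scramble mean) down to 45.9 CPM (tRNA-Asp-GTC-3, tDR mean), and scramble and tDR points overlap for every feature.

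Over the members as a whole, edgeR called 0 of 10, while it called 6.7% of all 1761 features tested, 94 higher and 24 lower in the tDR libraries. All 10 passed the filter on low counts. For 0 of 10 did the CPM of the groups fail to overlap, against 13.3% of all features tested. An unadjusted p below 0.05 was reached by 5 rows, the copies 2-1 to 2-5, against 21.5% of all features, and these 5 rows hold the same counts. DESeq2 and limma-voom also called 0 of 10, and in both 0 had an unadjusted p below 0.05. With rows of identical counts taken once the members were 6 sets, of which 5 had a log2 fold change above 0, with a median of 0.19. The median over all features tested was 0.02, and over the 214 other mature tRNA rows tested it was 0.13.

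Within the mature tRNA-Asp-GTC counts, which may hold reads of the mimic, the balance between isodecoders differed between the groups by less than 1 percentage point. tRNA-Asp-GTC-1 took 4.87% (95% Clopper-Pearson interval, exact, 4.77 to 4.97%), 6.05% (5.97 to 6.13%), 5.81% (5.68 to 5.95%) and 5.71% (5.63 to 5.79%) across scramble 1 to 4. It took 6.50% (6.40 to 6.60%), 6.20% (6.08 to 6.32%), 6.13% (6.04 to 6.22%) and 6.41% (6.31 to 6.52%) across tDR 1 to 4. Every tDR library was above every scramble library, although the intervals of the nearest pair, scramble library 2 and tDR library 3, overlapped, and intervals cover counting error only.

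The mean share of tRNA-Asp-GTC-1 was 5.61 ± 0.516% in the scramble libraries and 6.31 ± 0.175% with the tDR mimic (mean ± SD, n = 4 each), a difference of 0.699 percentage points. The exact two-sided permutation test gave p = 0.0286, the smallest that 4 against 4 libraries allow, and 0.114 after Benjamini-Hochberg adjustment over 8 composition measures, so the difference did not pass. Without scramble library 1 the difference was 0.452 percentage points. tRNA-Asp-GTC-2, whose share is nearly the complement, took 94.96, 93.77, 93.86 and 94.12% across scramble 1 to 4 and 93.36, 93.65, 93.74 and 93.40% across tDR 1 to 4. The tDR libraries all lay below the scramble libraries, and no 95% exact interval was wider than 0.276 percentage points. The means were 94.2 ± 0.543% for the scramble and 93.5 ± 0.188% for the tDR libraries (SD, n = 4 each), a difference of -0.641 percentage points (exact permutation p = 0.0286, adjusted 0.114). Without scramble library 1 the difference was -0.380 (exact permutation p = 0.0571).

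These shares were read against the other tRNAs. Over 175 isodecoders with a mean count of at least 100 in an isoacceptor with at least 2 isodecoders, the share did not overlap between the groups for 9.71%, 17 in number, tRNA-Asp-GTC-1 and tRNA-Asp-GTC-2 included. For 6.29% it both did not overlap and was higher in the tDR libraries. On the log2 scale the ratio of mean shares was 0.17 for tRNA-Asp-GTC-1 and -0.0098 for tRNA-Asp-GTC-2, within a range from -0.47 to 0.74 over all 175.

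**Figure D2:**
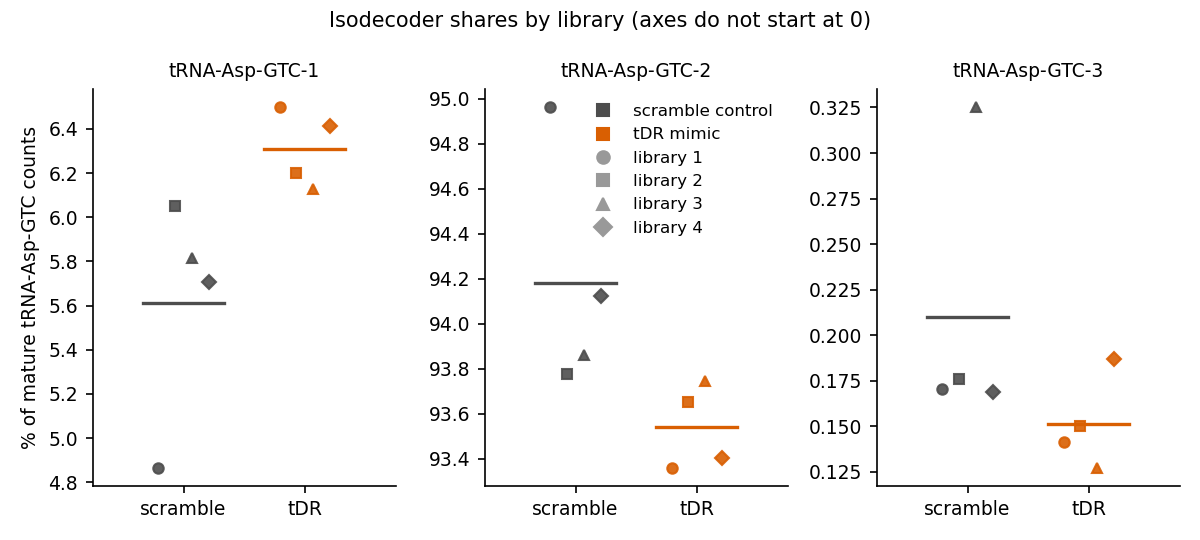
Share of each isodecoder in the mature tRNA-Asp-GTC counts of a library, in %, with 1 point per library, a bar at the mean of 4 libraries and axes that do not start at 0. The tDR libraries lie above all scramble libraries for tRNA-Asp-GTC-1 (6.13 to 6.50% against 4.87 to 6.05%) and below them for tRNA-Asp-GTC-2, while the groups overlap for tRNA-Asp-GTC-3.

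tRNA-Asp-GTC-3 took 0.170, 0.176, 0.325 and 0.169% of the mature tRNA-Asp-GTC counts across scramble 1 to 4, and 0.142, 0.150, 0.127 and 0.187% across tDR 1 to 4. No 95% exact interval of these shares was wider than 0.0662 percentage points. Scramble library 3 stood far above the rest, and the groups overlapped. The means were 0.210 ± 0.0768% and 0.152 ± 0.0253% (SD, n = 4 each, exact permutation p = 0.114, adjusted 0.229). This was the lowest log2 ratio of mean shares among the 175 isodecoders, -0.47, and without scramble library 3 the difference shrank from -0.0587 to -0.0203 percentage points.

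**Figure D3:**
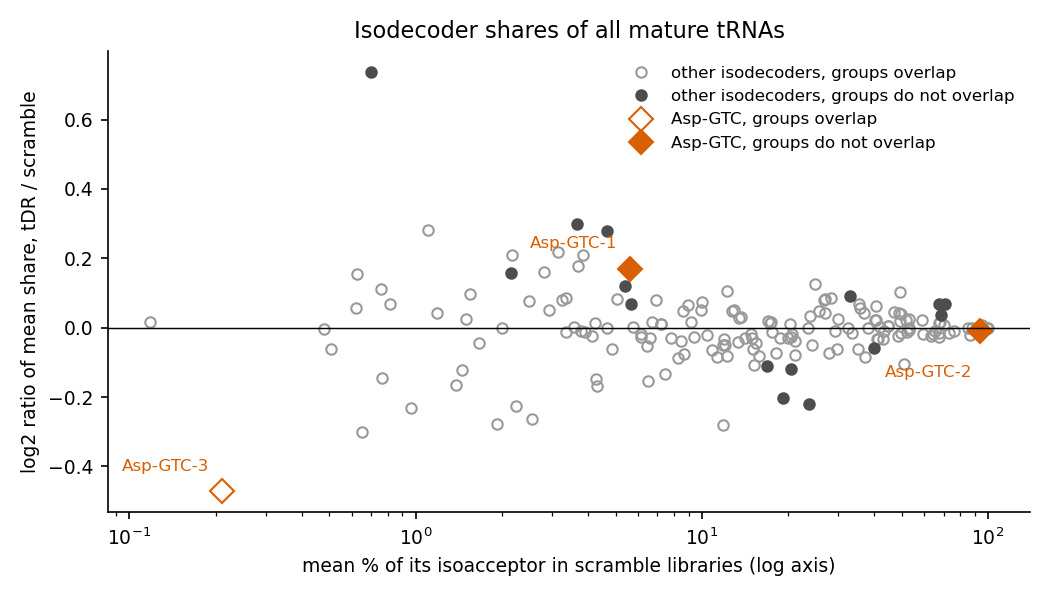
For each of 175 isodecoders, the log2 ratio of its mean share of the isoacceptor's counts (tDR over scramble, 4 libraries each) against its mean share in the scramble libraries, in % on a log axis. Filled symbols mark shares whose groups do not overlap (17 of 175), diamonds mark tRNA-Asp-GTC, and tRNA-Asp-GTC-3 has the lowest ratio.

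The precursor rows fell into 3 sets of reads. The 5 copies of the chromosome 1 array carried exactly the same count in each library, 28, 61, 25 and 56 across scramble 1 to 4 and 35, 47, 56 and 64 across tDR 1 to 4. The table thus holds this number 5 times, and it cannot say which copy was transcribed. The copies 2-8 and 2-9 had counts of their own. Of 37 precursor rows with a mean count of at least 20 in the table, 13 shared their counts with another row in every library, in 3 sets. The other sets, in tRNA-Glu-CTC-1 and tRNA-Gly-GCC-1, had 4 rows each.

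tRNA-Asp-GTC-2-9 was the most counted Asp precursor, with 188, 276, 171 and 363 counts across scramble 1 to 4 and 197, 169, 257 and 218 across tDR 1 to 4. In every library it ranked second among 238 distinct precursor rows, behind tRNA-Lys-TTT-6-1, with tRNA-Asp-GTC-2-8 next after it. At the copy 2-9 the level was 30.0 ± 6.47 CPM in the scramble libraries and 29.8 ± 4.34 CPM with the tDR mimic (mean ± SD, n = 4 each), which put the log2 fold change at 0.0014 (SE 0.18, edgeR adjusted p = 0.998). Its sign depended on the setting, so no direction is given.

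tRNA-Asp-GTC-2-8, the copy in the LTA4H intron, gave 10.9, 18.9, 16.2 and 17.3 CPM across scramble 1 to 4. It gave 16.2, 12.5, 28.5 and 22.3 CPM across tDR 1 to 4. tDR libraries 3 and 4 exceeded all scramble libraries and tDR library 2 lay below 3 of them. The log2 fold change was 0.33 (SE 0.24, edgeR adjusted p = 0.464), and it was 0.11 without tDR library 3 and 0.18 without scramble library 1.

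The chromosome 1 array gave 3.56, 5.78, 5.62 and 4.88 CPM across scramble 1 to 4 and 4.77, 7.33, 7.79 and 8.94 CPM across tDR 1 to 4. In 3 of 4 tDR libraries it was above all scramble libraries, and tDR library 1 lay among them. The log2 fold change of 0.54 (SE 0.26) was the highest among the members and did not pass (edgeR adjusted p = 0.229). With identical rows taken once, the adjusted p was 0.224. Between 25 and 64 counts a library stand behind these values.

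Set against the mature tRNA, the precursors were present at fewer than 3 counts per 1000. The distinct precursor counts of the 7 loci, with the array taken once, summed to 302, 536, 268 and 618 across scramble 1 to 4 and 351, 296, 518 and 442 across tDR 1 to 4. Per 1000 mature tRNA-Asp-GTC counts this came to 1.63, 1.50, 2.29 and 1.81 across scramble 1 to 4. It came to 1.56, 1.79, 1.95 and 2.11 across tDR 1 to 4. The mature counts may hold reads of the mimic, so these values cannot tell the ratio of the cell's own tRNA with the tDR mimic. The ranges of the 2 groups overlapped, with scramble library 3 highest. The means were 1.81 ± 0.347 and 1.85 ± 0.234 (SD, n = 4 each), and the difference of the mean log2 ratios was 0.044 (exact permutation p = 0.8, adjusted 0.914). Over the 17 isoacceptors with a mean of at least 50 distinct precursor counts, 11.8% had ratios that did not overlap between the groups, and Asp-GTC was not among them. The median of their log2 differences was also 0.044, since Asp-GTC was itself the median. Asp-GTC entered with its 7 loci, and the other isoacceptors with all their precursor rows. With all 12 Asp-GTC precursor rows its log2 difference was 0.072. The gene of tRNA-Asp-GTC-1 has no precursor row, although its mature counts are in the denominator. With the 7 loci set against tRNA-Asp-GTC-2 alone, the log2 difference was 0.053.

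Among the same 17 isoacceptors Asp-GTC, with its 7 loci alone, ranked 12 by its precursor ratio in the scramble libraries. The range ran from 0.731 per 1000 in Glu-CTC to 393 per 1000 in Tyr-GTA. Tyr-GTA had a mean of only 214.75 mature counts a library, beside 69.25 distinct precursor counts. The cause of its ratio was not tested. Neighbours in this order were Gly-GCC at 1.95 ± 0.233 and Lys-CTT at 1.52 ± 0.323 (SD, n = 4 each), both within 1 SD of Asp-GTC.

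**Figure D4:**
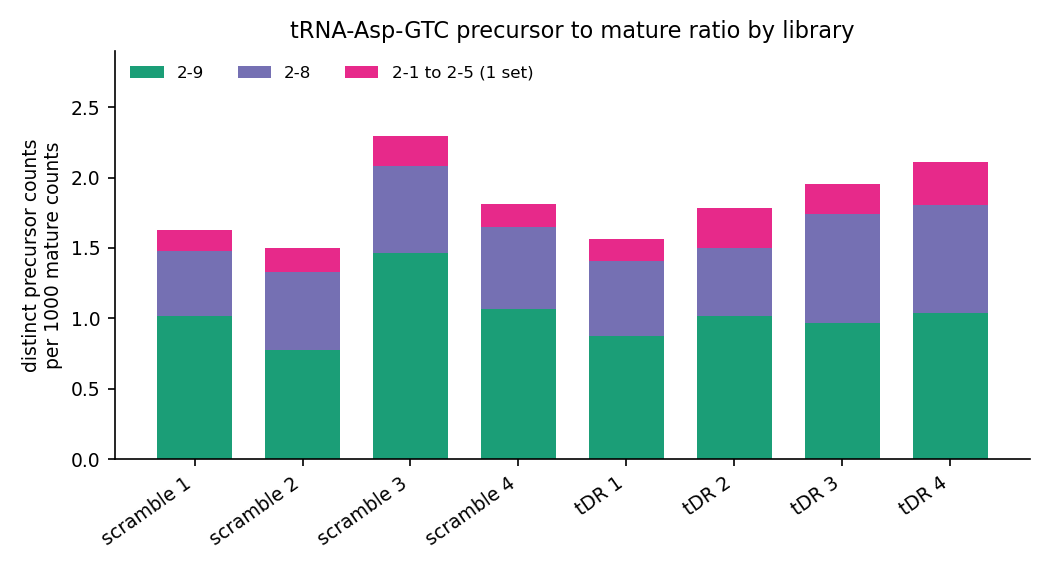
Distinct precursor counts of the 7 tRNA-Asp-GTC loci per 1000 mature tRNA-Asp-GTC counts in each library, stacked by read set, with the 5 identical rows of the chromosome 1 array counted once. The stacks reach 1.50 to 2.29 in the scramble libraries and 1.56 to 2.11 in the tDR libraries, and tRNA-Asp-GTC-2-9 is the largest part of every stack.

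**Figure D5:**
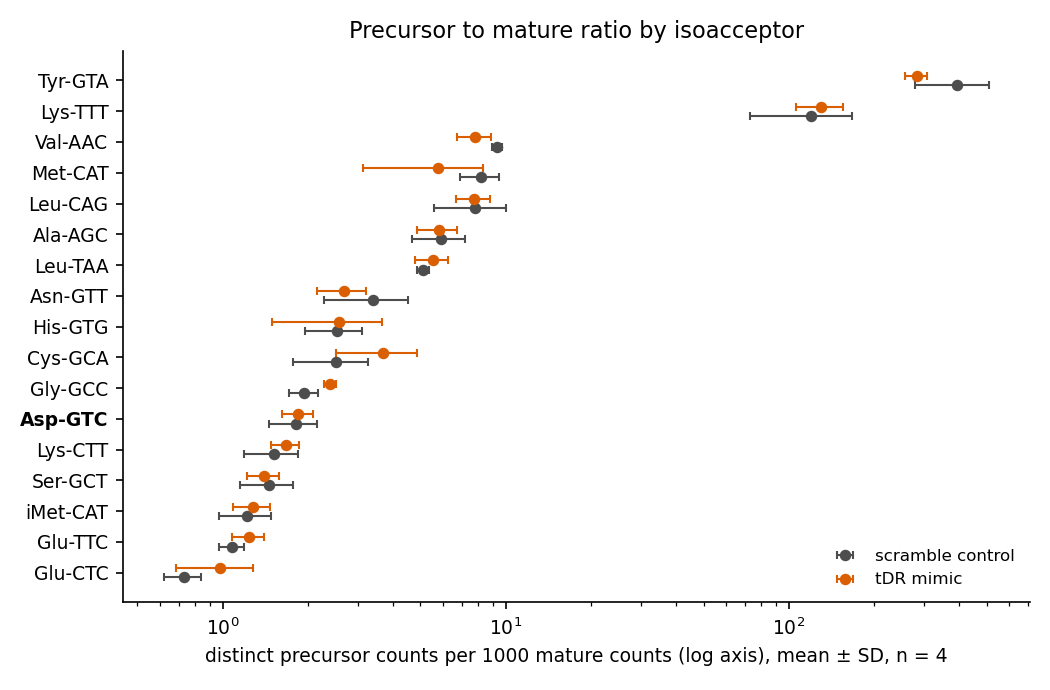
Distinct precursor counts per 1000 mature counts for 17 isoacceptors, on a log axis, as mean and SD of 4 libraries in each group. Asp-GTC, in bold, lies in the lower part of the order with 1.81 in the scramble and 1.85 in the tDR libraries. It enters with its 7 loci, the others with all their precursor rows. Its mature counts may hold reads of the mimic.

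Within the distinct precursor counts of the 7 loci, tRNA-Asp-GTC-2-9 held 59.1 ± 5.48% in the scramble and 53.0 ± 4.14% in the tDR libraries. The copy tRNA-Asp-GTC-2-8 held 31.2 ± 4.56% and 34.2 ± 5.30% (SD, n = 4 each, for both copies). The array held 9.27% (95% exact interval 6.25 to 13.1%), 11.4% (8.82 to 14.4%), 9.33% (6.13 to 13.5%) and 9.06% (6.92 to 11.6%) across scramble 1 to 4. It held 9.97% (7.04 to 13.6%), 15.9% (11.9 to 20.5%), 10.8% (8.27 to 13.8%) and 14.5% (11.3 to 18.1%) across tDR 1 to 4. tDR libraries 2 and 4 were high, and the other tDR libraries lay within the scramble range. The means were 9.76 ± 1.09% and 12.8 ± 2.84% (exact permutation p = 0.0857, adjusted 0.229). When the 5 rows of the array were summed rather than taken once, the difference was 6.91 rather than 3.02 percentage points.

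Reads of the mimic may also be part of the mature Asp-GTC counts in the shares that follow. In the pool of mature tRNAs, Asp-GTC was the most counted of 47 isoacceptors with a mean count of at least 100, in both groups. It made up 14.0% (95% exact interval 13.9 to 14.0%), 20.2% (20.1 to 20.3%), 19.6% (19.5 to 19.7%) and 19.8% (19.7 to 19.8%) of all mature tRNA counts across scramble 1 to 4. Across tDR 1 to 4 it made up 21.3% (21.2 to 21.4%), 19.2% (19.2 to 19.3%), 17.2% (17.1 to 17.2%) and 16.6% (16.5 to 16.7%). Scramble library 1 was far below the other scramble libraries, and it was the sole library in which tRNA-Asp-GTC-2 was not the most counted mature row, tRNA-Glu-CTC-1, of the same gene length, being ahead with 195888 against 176012 counts.

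The mean share was 18.4 ± 2.96% in the scramble and 18.6 ± 2.14% with the tDR mimic (mean ± SD, n = 4 each, exact permutation p = 0.943, adjusted 0.943). Without scramble library 1 the difference turned from 0.207 to -1.27 percentage points (exact permutation p = 0.343). For 2.13% of the 47 isoacceptors the shares did not overlap between the groups. This was Gly-TCC, named after its value was seen.

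The 4 queuosine tRNAs gave a narrower frame, in which the mature Asp-GTC counts may again hold reads of the mimic. Of the mature counts on Asp-GTC, Asn-GTT, His-GTG and Tyr-GTA, Asp-GTC took 76.9 to 86.4% in the scramble libraries and 80.3 to 85.3% in the tDR libraries. No 95% exact interval of these shares was wider than 0.370 percentage points. The means were 83.4 ± 4.45% and 82.7 ± 2.29% (SD, n = 4 each, exact permutation p = 0.8, adjusted 0.914), and scramble library 1 was again the lowest. Of all distinct precursor tRNA counts, the 7 Asp-GTC loci took 12.1 ± 1.84% in the scramble libraries. In the tDR libraries they took 11.6 ± 0.902% (exact permutation p = 0.629, adjusted 0.914). The 5 further Asp-GTC precursor rows entered the total only.

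Few related tRNAs were called. Among the other mature tRNA rows edgeR called 1 of 214 (0.467%), higher, and 12 had an unadjusted p below 0.05. Among the other precursor rows it called 0 of 71 (0.0%), and 4 had an unadjusted p below 0.05. Over all features tested, edgeR called 6.7%, and 21.5% had an unadjusted p below 0.05. Of the mature Asn-GTT, His-GTG and Tyr-GTA rows 17 of 22 were tested, 0 were called, 5 had an unadjusted p below 0.05, and the median log2 fold change was 0.32. Their most counted row, tRNA-His-GTG-1, stood at 0.17 (SE 0.19, edgeR adjusted p = 0.684). Of the 7 mature Glu rows, the tRNAs of the other acidic amino acid, edgeR called 0 (0 at an unadjusted p below 0.05) and the median was 0.22. Their most counted row, tRNA-Glu-CTC-1, stood at 0.056 (SE 0.16, edgeR adjusted p = 0.893). Gly-GCC and Val-AAC are, like Asp-GTC, substrates of TRDMT1. Of their 8 mature rows edgeR called 0 (0 at an unadjusted p below 0.05), and the median was 0.061, with tRNA-Gly-GCC-1 at 0.052 (SE 0.13, edgeR adjusted p = 0.877). RPPH1, the RNA subunit of RNase P, gave 101 ± 9.84 CPM in the scramble and 108 ± 10.3 CPM with the tDR mimic (mean ± SD, n = 4 each, log2 fold change 0.11, SE 0.14, edgeR adjusted p = 0.764). tRNA-Lys-TTT-6-1, the most counted precursor, differed by 0.30 on the log2 scale (SE 0.18, edgeR adjusted p = 0.36).

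Outside the members, the 5 features most like tRNA-Asp-GTC-2 over the 8 libraries were all mature tRNAs. By Pearson's r of log2 CPM they were tRNA-Gly-CCC-1 (0.948), tRNA-Arg-TCT-3 (0.928), tRNA-Phe-GAA-1 (0.926), tRNA-Ser-CGA-1 (0.919) and tRNA-Glu-TTC-1 (0.906). These correlations share the libraries, their scaling and their tRNA content, so they are descriptions only. Among the members, r with the main isodecoder was 0.924 for tRNA-Asp-GTC-1 and 0.868 for the copy 2-8. It was 0.423 for the array, 0.320 for the copy 2-9 and 0.093 for tRNA-Asp-GTC-3.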

How the data were processed

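The deposited raw table gives counts, whole numbers with 1 column a library. The authors' second table holds a normalized signal: each count divided by a factor per library, 1 factor for tRNA rows and 1 for the others. How the factors were estimated, the aligner, the counter and the annotation are not stated. Per the submitters' processing notes the build is hg38. Libraries were made by OTTR-seq per the labels' protocols.

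The rows scr and scr2 (0.000749 to 0.565% of counts) stayed out of sizes and tests. edgeR 4.0.16 (R 4.3.3) was fitted on the whole table: filterByExpr (1761 kept), TMM, robust quasi-likelihood F test, adjusted p below 0.05; SE is the log2 fold change over the square root of F. Tested on simulated data for this comparison (1690 features), the fit called 75 of 95 features with a true log2 change of 1, 90 of 90 with 2, and 10 of 1505 unchanged ones. Shares were tested by exact permutation (two-sided, 70 arrangements, smallest p 0.0286), adjusted over 8 measures; adjusted p below 0.05 needs at least 5 of them at the smallest p. Binomial intervals cover counting error only. Precursor rows with identical counts were taken once in shares and ratios, and mature rows with identical counts were all kept. Replicates were compared: 12 pairs, lowest chi-square per degree of freedom 15.6. Alternatives used DESeq2 1.42.0 and limma 3.58.1. Named were all members, RPPH1, the most counted row of each list, and the 5 features other than members, with a mean count of at least 100, most correlated with tRNA-Asp-GTC-2. Members and lists were chosen with earlier results of these data known. Positions are RefSeq GRCh38 and GENCODE release 29. Python 3.11.15 with numpy 2.4.6, pandas 2.3.3, scipy 1.17.1 and matplotlib 3.10.9 made tables and figures.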

Additional observations from a re-analysis of the deposited data

Results flagged for a closer look

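In 28 groups of 4 values (6 levels and 8 composition measures in each of the 2 groups), a library was set apart from the other 3 in 3 groups, where its gap to the nearest of them took up more of the group's range than Dixon's 95% limit. Chance gives about 1 such group in 20. In scramble library 1, Asp-GTC held 14.0% of the mature tRNA counts, against 19.6 to 20.2% in the other scramble libraries. In scramble library 3, tRNA-Asp-GTC-3 held 0.325% of the mature tRNA-Asp-GTC counts, against 0.169 to 0.176% in the others. In scramble library 2, the chromosome 1 array held 11.4% of the distinct precursor counts of the 7 tRNA-Asp-GTC loci, against 9.06 to 9.33% in the others.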

How the results depend on the processing

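Over 19 alternatives of the fit, edgeR, DESeq2 and limma called 0 members in each (a mean count of at least 50 left 5 of 10 to test), with the lowest adjusted p at 0.0664 for the chromosome 1 array when scaling on microRNAs alone, while calls over all features ran from 39 to 188 (39 with the replicate block, 65 without scramble library 2, 70 without scramble library 3, 188 with limma on the deposited signal, 118 as reported). Total counts moved the median of all features from 0.02 to -0.13 (54 called higher, 39 lower) and scaling on microRNAs alone to 0.36 (157 higher, 1 lower), against 94 higher and 24 lower. The log2 fold changes of 3 members changed sign under some settings. tRNA-Asp-GTC-2 stood at -0.044 under total counts and -0.095 on the deposited signal. tRNA-Asp-GTC-3 stood at 0.065 under scaling on microRNAs alone. tRNA-Asp-GTC-2-9 stood at -0.0085 with DESeq2 size factors, -0.16 under total counts, -0.037 with a mean count of at least 50, -0.0084 with the DESeq2 Wald test, -0.00063 with identical rows once, -0.19 on the deposited signal, and from -0.094 to 0.11 with 1 library left out. The cause was not tested. The sizes moved with the scaling too: under total counts, on the deposited signal and scaled on microRNAs alone, tRNA-Asp-GTC-1 stood at 0.12, 0.089 and 0.67, the copy 2-8 at 0.17, 0.088 and 0.78, and the array at 0.38, 0.32 and 0.95. The difference in the share of the 7 Asp-GTC loci among precursors turned from -0.505 to 0.448 percentage points with all precursor rows summed. The difference in the share of the mature Asp-GTC rows was 0.207 points of mature tRNA counts. It turned to -0.0712 points with all counts as denominator. With 1 library left out, the differences ran from -1.27 to 0.867 points for the mature tRNA share, -2.93 to 0.252 for the queuosine tRNA share, -1.12 to 0.129 for the precursor share, and -0.040 to 0.16 (log2) for the precursor ratio. With the 5 rows of the array summed rather than taken once, the precursor ratio differed by 0.16 (log2, exact permutation p = 0.4) rather than 0.044. With all 12 Asp-GTC precursor rows, an alternative chosen after seeing the data, the 3 precursor measures kept their direction.

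Whether the replicate numbers pair the libraries is not stated. Deviations of same-numbered libraries from their group means correlated at -0.345, -0.183, -0.26 and -0.12. Such deviations sum to 0 within a group, so these values cannot decide whether the libraries were prepared in pairs. With the replicate block 0 members were called, tRNA-Asp-GTC-2 stood at 0.11, and exact sign flips of same-numbered differences gave a permutation p = 0.125, the smallest possible, for the difference of 0.699 points in the tRNA-Asp-GTC-1 share. Depth limits the array, with 25 to 64 counts a library.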

Other observations

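A further 5 precursor rows of this tRNA, tRNA-Asp-GTC-2-6, 2-7, 2-10, 2-11 and 3-1, held 0 to 16 counts a library and were not tested. tRNA-Asp-GTC-2-10 starts 12302 bases from tRNA-Asp-GTC-2-9 on chromosome 12, and had 43 counts over the 8 libraries.

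Rows for the antisense strand of the 3 isodecoders summed to 0 counts in each scramble library and to 0, 4, 2 and 0 across tDR 1 to 4. All tRNA antisense rows together held 4, 0, 0 and 7 counts across scramble 1 to 4 and 5, 8, 12 and 14 across tDR 1 to 4.

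The single mature tRNA row that edgeR called was tRNA-Arg-TCT-4, chosen after its value was seen. It went from 24.7 ± 4.83 to 44.8 ± 17.6 CPM (SD, n = 4 each, log2 fold change 0.86, SE 0.23, edgeR adjusted p = 0.0264).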
